A study of Mus musculus with 7 samples.

Results

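Excitatory neurons of the cerebral cortex release glutamate and are arranged in layers, and 9 genes that mark these cells were followed in bulk RNA-seq of mice without the creatine transporter. The genes were taken by symbol from the table of FPKM, which are sequenced fragments scaled to the exon length of a gene and to the size of the library, and all 9 were present among its 24346 genes. They are Slc17a7 and Slc17a6, which encode vesicular glutamate transporters, the upper-layer transcription factors Cux1, Cux2 and Rorb, and the deep-layer transcription factors Fezf2, Bcl11b, Tbr1 and Foxp2.

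Cortical RNA came from male mice on a C57BL/6J background at postnatal day 100. The 4 CrT-/y animals (Slc6a8 KO, called KO 0 to KO 3 after their labels) were hemizygous for a deletion of exons in Slc6a8, the X-linked gene of the creatine transporter, and the 3 CrT+/y animals (wild type, WT 1 to WT 3) were their littermates. The deletion is carried by every cell of the body, so that no cell type of the cortex keeps the transporter gene intact in a CrT-/y animal. Each animal gave 1 mRNA library, and the labels name neither a batch nor the litter of an animal. The question of the comparison is whether the loss of the transporter goes with another level of the genes that define excitatory neurons and their layers.

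Glutamate is loaded into synaptic vesicles by the transporters of the SLC17 family, and in the adult forebrain Slc17a7 is the main form in the cortex whereas Slc17a6 prevails in the thalamus and other subcortical regions. Cortical projection neurons acquire their layer and target under transcription factors that partly repress each other. Cux1, Cux2 and Rorb mark neurons of the upper layers, with Rorb typical of layer 4, Fezf2 and Bcl11b direct the fate of subcerebral projection neurons of layer 5, and Tbr1 and Foxp2 mark corticothalamic neurons of layer 6. Bcl11b and Foxp2 are also expressed by the medium spiny neurons of the striatum, which lies directly beneath the cortex. In bulk tissue, fewer cells of a type and less RNA per cell cannot be told apart.

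The targeted gene followed the labels, since Slc6a8 was at 12.4 to 15.7 FPKM in KO 0 to KO 3 and at 28.0 to 32.3 FPKM in WT 1 to WT 3 (log2 fold change -1.05, standard error 0.087, limma adjusted p = 0.00238). Libraries differed in genes of neighbouring regions before any comparison of genotypes. The summed level of 14 striatal genes, of which Ppp1r1b was the highest, was 639 FPKM in KO 1, 592 FPKM in WT 2 and 553 FPKM in KO 0, against 172 to 378 FPKM in the other 4 animals. Choroid plexus and ependymal genes summed to 399 FPKM in WT 2, of which the choroid plexus gene Ttr made up 379 FPKM, and to 8.19 to 55.1 FPKM elsewhere. Olfactory bulb genes stood highest in KO 1 (19.7 FPKM, with Cdhr1 at 9.14 FPKM) and hippocampal genes, led by Fibcd1, in KO 2 and WT 3 (20.1 and 15.0 FPKM, against 6.25 to 8.60 FPKM elsewhere). Thalamic genes, led by Rgs16, were highest in WT 2 (21.5 FPKM, against 15.4 to 17.6 FPKM), and oligodendrocyte genes, led by Mbp, were lowest in KO 3 (826 FPKM, against 1158 to 1522 FPKM).

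With limma on log2(FPKM + 0.1), 10.1% of the 12988 tested genes had an adjusted p under 0.1, the threshold used for a call throughout. The same threshold called 0 of 13 tested striatal genes, 0 of 6 thalamic, 0 of 4 hippocampal, 1 of 3 olfactory bulb (Cdhr1, higher in CrT-/y), 0 of 5 choroid plexus, 0 of 6 oligodendrocyte, 0 of 2 oligodendrocyte precursor and 0 of 5 microglial genes. It also called 3 of 9 inhibitory neuron genes (Gad1, Adarb2 and Dlx1, all higher in CrT-/y), 1 of 6 astrocyte genes (Sox9, lower) and 2 of 4 endothelial genes (Flt1 and Pecam1, lower). All 13 tested striatal genes had a higher mean log2 level in CrT-/y animals, and the median of their log2 fold changes was 0.61, against -0.03 over all tested genes.

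All 9 excitatory and layer genes were expressed well above the minimum mean of 1 FPKM that a gene needed to be tested. Their mean levels over the 7 animals ran from 601 FPKM for Slc17a7, the gene of rank 50 among all genes of the table, through 63.3 FPKM for Tbr1, 28.6 FPKM for Cux1, 24.4 FPKM for Cux2, 21.1 FPKM for Bcl11b, 16.0 FPKM for Fezf2, 13.5 FPKM for Rorb and 8.57 FPKM for Slc17a6 to 4.61 FPKM for Foxp2. FPKM are divided by transcript length, so these levels can be set against each other as levels of each gene over all its transcripts. The ranges over animals of neighbours in this order did not overlap between Slc17a7 and Tbr1, Tbr1 and Cux1, Rorb and Slc17a6, or Slc17a6 and Foxp2. The 5 genes from Cux1 to Rorb formed a run in which each range overlapped the next, although Cux1 lay above Cux2 in 7 of 7 animals, Cux2 above Bcl11b in 4, Bcl11b above Fezf2 in 5 and Fezf2 above Rorb in 6. The vesicular transporters stood near opposite ends, with 62.4 to 101 times as much Slc17a7 as Slc17a6 in CrT-/y animals and 51.9 to 78.1 times in CrT+/y animals.

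In the GENCODE annotation of GRCm38 (mm10), Slc17a7 lies at chr7:45163949-45176142 on the plus strand, with 12 exons, and Slc17a6 on the same chromosome and strand at chr7:51622006-51671119, also with 12 exons. The homeobox genes Cux1 (chr5:136248135-136567490, 24 exons) and Cux2 (chr5:121856366-122050102, 23 exons) share the minus strand of chromosome 5. Rorb is at chr19:18930605-19111196 (minus strand, 10 exons), Fezf2 at chr14:12342094-12348189 (minus, 4 exons) and Bcl11b at chr12:107910403-108003602 (minus, 4 exons). Tbr1 is at chr2:61802930-61814114 (plus, 6 exons) and Foxp2 at chr6:14901349-15441977 (plus, 19 exons). The FPKM of a gene sums over all of its exons, and nothing in the table separates its transcripts, of which Foxp2 has 20 annotated and Cux1 14.

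The promoter windows of 3 of these genes are shown because Rorb and Tbr1 had the most similar profiles over the 7 animals among the 9 genes and Bcl11b the least similar to both. RefSeq windows (GRCm38.p6, 250 bases before to 50 after a transcript start) matched 8 of the 9 genes, all but Foxp2, with 11 windows. Each is written 5′ to 3′ on the strand of the gene, and capitals mark the letters of 5 motifs, each read on both strands. These were the GC box with the letters GGGCGG, the TATA box, searched here as the letters TATAAA, the half-site of T-box factors like Tbr1, searched as GTGTGA, the half-site of receptors like Rorb, searched as AGGTCA, and the E-box of NeuroD-type factors, searched as CAGATG.
Rorb, chr19:19111147-19111446, minus strand: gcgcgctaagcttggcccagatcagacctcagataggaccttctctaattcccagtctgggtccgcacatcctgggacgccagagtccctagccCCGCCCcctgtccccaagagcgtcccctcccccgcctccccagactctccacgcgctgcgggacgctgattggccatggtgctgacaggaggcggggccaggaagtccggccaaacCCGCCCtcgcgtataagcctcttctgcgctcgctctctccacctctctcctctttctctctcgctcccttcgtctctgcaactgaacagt
Tbr1, chr2:61804203-61804502, plus strand: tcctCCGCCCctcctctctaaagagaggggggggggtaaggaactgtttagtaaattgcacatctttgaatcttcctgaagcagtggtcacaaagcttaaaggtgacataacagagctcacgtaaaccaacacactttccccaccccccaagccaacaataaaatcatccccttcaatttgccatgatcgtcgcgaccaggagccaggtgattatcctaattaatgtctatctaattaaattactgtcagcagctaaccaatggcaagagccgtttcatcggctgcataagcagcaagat
Bcl11b, chr12:108003365-108003664, minus strand: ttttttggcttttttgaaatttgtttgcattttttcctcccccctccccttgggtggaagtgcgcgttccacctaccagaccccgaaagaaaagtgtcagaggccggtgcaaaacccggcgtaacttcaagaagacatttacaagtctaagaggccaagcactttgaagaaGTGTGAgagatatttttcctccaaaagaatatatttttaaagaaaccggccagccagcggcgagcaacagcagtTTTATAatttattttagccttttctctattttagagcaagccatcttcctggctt
The Rorb window printed, 1 of 2 for this gene, was 63.7% G and C and held 2 GC boxes, and the Tbr1 window was 46.0% G and C and held 1. The other Rorb window, at 41.0% G and C, held none of the 5 motifs. The Bcl11b window was 43.0% G and C and held no GC box, but 1 half-site of T-box factors and, on the opposite strand, 1 TATA box. No 2 of these matches overlapped. The printed Rorb and Bcl11b windows held the gene start of the GENCODE annotation, whereas the Tbr1 window lay inside the annotated gene. Over the 11 windows, 5 held the GC box, against 35.7% of all 32851 RefSeq windows, 2 the TATA box (13.6%), 2 the T-box factor half-site (14.5%), 2 the E-box (17.2%) and 0 the half-site of Rorb-like receptors (16.3%). These are matches of letters in a window of 300 bases and nothing was measured at them.

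None of the 9 genes passed the threshold, against 10.1% of all tested genes, and none had groups that did not overlap, against 21.6% of all tested genes. Slc17a6 and Rorb had an unadjusted limma p under 0.05, as did 25% of the tested genes. With 4 against 3 animals, an exact permutation p under 0.05 needs groups that do not overlap, so that 0 of the 9 could have one. The median log2 fold change of the 9 genes was -0.13, beside -0.03 over all tested genes. After quantile normalization it was -0.07, beside -0.0023 over all tested genes, and after upper quartile scaling -0.06, beside 0.028. The length correction gave -0.06, beside -0.026, and median centring -0.09, beside 0.0036. The scalings thus moved the median of all tested genes as well. The difference was negative (lower in CrT-/y) in 7 of 9 genes, and in 7554 of the 12988 tested genes. Of the 9, it was negative in 6 after quantile normalization or median centring and in 5 after upper quartile scaling. On the fold scale, the narrowest 95% interval, that of Fezf2, ran from 0.801 to 1.04 and the widest, that of Bcl11b, from 0.874 to 1.52.

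**Figure D1:**
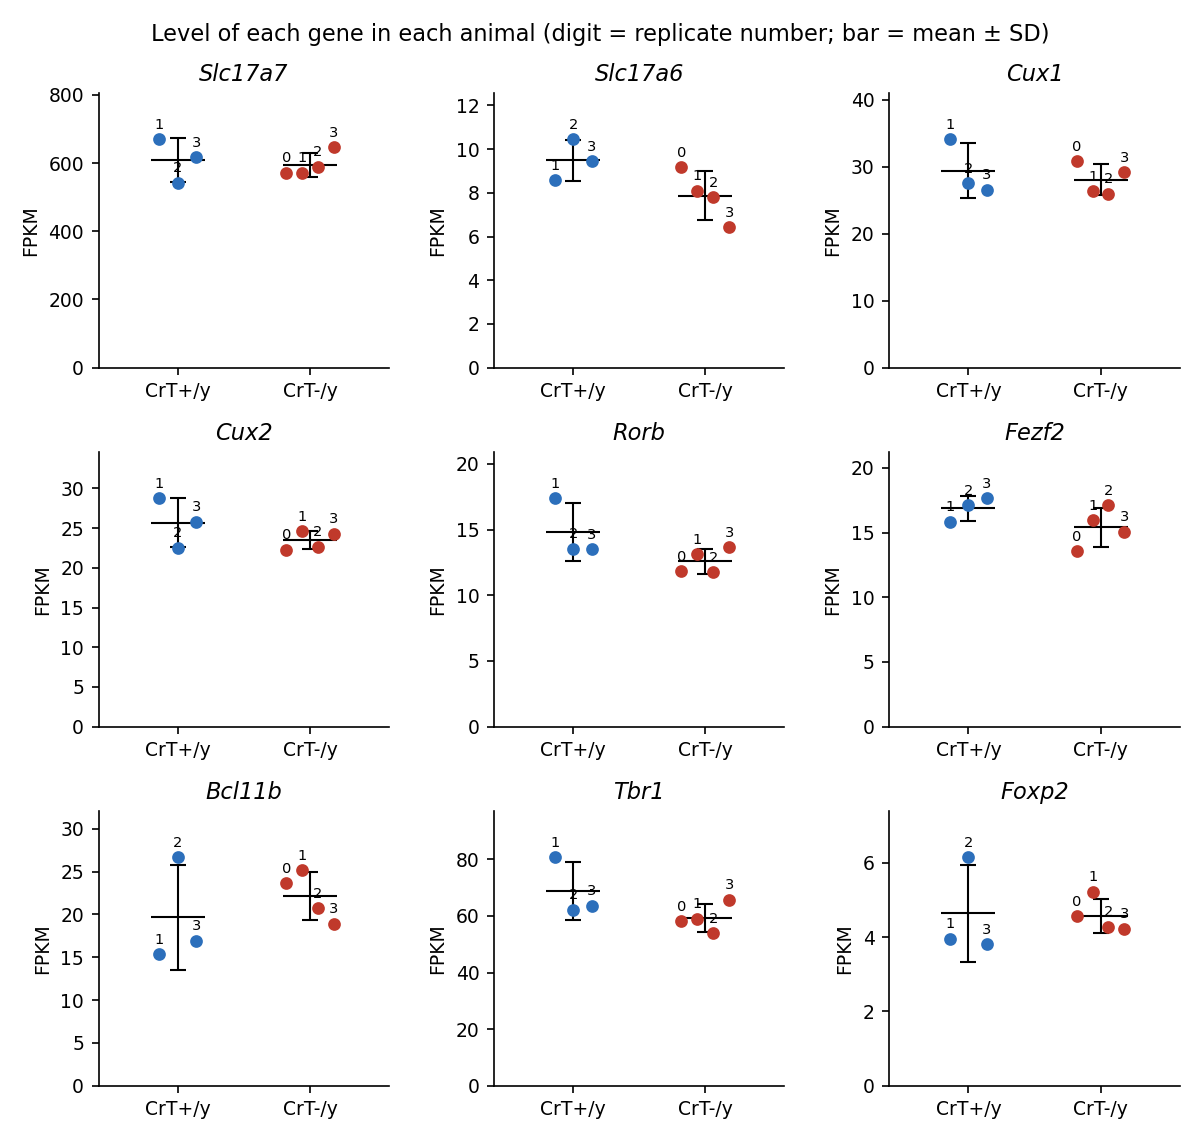
FPKM (linear axes from 0) of the 9 genes in each CrT+/y (blue) and CrT-/y (red) animal, with the replicate number beside each point and the mean ± SD of the group (n = 3 and 4). The groups overlap in every panel, WT 1 is the highest point for Slc17a7, Cux1, Cux2, Rorb and Tbr1, and WT 2 is the highest for Slc17a6, Bcl11b and Foxp2.

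The main cortical vesicular glutamate transporter, Slc17a7 (VGLUT1), differed little between genotypes. Its level was 571, 571, 589 and 647 FPKM in KO 0 to KO 3 and 670.0, 542 and 618 FPKM in WT 1 to WT 3. The CrT+/y animals held both the highest and the lowest value, and the CrT-/y animals lay between them. The CrT-/y mean was 595 ± 35.6 FPKM (SD, n = 4), beside 610.1 ± 64.2 FPKM (SD, n = 3) in the CrT+/y group. The log2 fold change of -0.03 (standard error 0.084, limma adjusted p = 0.833, exact permutation p = 0.714) turned positive under all 3 other scalings, at 0.04, 0.03 and 0.0034.

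Slc17a6 (VGLUT2) had the lowest p of the 9 genes. Its protein is carried in the cortex mostly by the terminals of other regions. The values here are of its RNA, which few cortical cells make. The level of Slc17a6 was 9.16, 8.10, 7.79 and 6.42 FPKM in KO 0 to KO 3 and 8.58, 10.5 and 9.45 FPKM in WT 1 to WT 3. WT 2 was highest and KO 3 lowest, and the groups overlapped only through KO 0, which lay above WT 1. The CrT-/y mean was 7.87 ± 1.13 FPKM (SD, n = 4), beside 9.50 ± 0.935 FPKM (SD, n = 3) in the CrT+/y group. The log2 fold change was -0.27 (standard error 0.118, 95% interval -0.54 to -0.0092), with a limma p of 0.0440 before and 0.190 after adjustment and an exact permutation p of 0.114, where 0.0286 is the smallest that 4 against 3 animals allow. The summed level of thalamic genes was also highest in WT 2 and lowest in KO 3, but the order between them differed. From high to low it ran WT 2, KO 2, KO 1, WT 1, KO 0, WT 3 and KO 3, with 17.6 FPKM in KO 2 and 15.5 FPKM in WT 3. The part of thalamic tissue in the Slc17a6 values was not tested.

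Of the other 7 genes of the SLC17 family, 2 passed the filter on low values and 0 were called. Slc17a8 (VGLUT3), the remaining vesicular glutamate transporter, had a mean of 1.68 ± 0.221 FPKM (SD, n = 4) in CrT-/y, beside 1.34 ± 0.306 FPKM (SD, n = 3) in the CrT+/y group (limma adjusted p = 0.295). Slc17a5, the lysosomal sialic acid transporter, was at 9.24 and 8.81 FPKM.

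Among the upper-layer factors, Cux1 and Cux2, which control dendrite and spine growth of upper-layer neurons, overlapped between genotypes. Cux1 was at 30.8, 26.3, 25.9 and 29.2 FPKM in KO 0 to KO 3 and at 34.1, 27.5 and 26.6 FPKM in WT 1 to WT 3. The spread within each genotype was larger than the difference of the means, 28.1 ± 2.33 FPKM (SD, n = 4) against 29.4 ± 4.10 FPKM (SD, n = 3). Its log2 fold change of -0.06 (standard error 0.097, limma adjusted p = 0.730, exact permutation p = 0.629) became 0.00046 after upper quartile scaling. The Cux1 locus also gives CASP, a protein without the homeodomain, and the table does not separate its reads.

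Cux2 was at 22.3, 24.6, 22.7 and 24.3 FPKM in KO 0 to KO 3 and at 28.8, 22.5 and 25.8 FPKM in WT 1 to WT 3. The CrT-/y animals lay close together and WT 2 fell among them, whereas WT 1 and WT 3 were the highest animals. The means were 23.5 ± 1.15 FPKM (SD, n = 4) and 25.7 ± 3.12 FPKM (SD, n = 3), and the log2 fold change was -0.13 (standard error 0.084, limma adjusted p = 0.377, exact permutation p = 0.286). The ratio of Cux2 to Cux1 was 0.724 to 0.934 in CrT-/y and 0.819 to 0.970 in CrT+/y animals. The proportion of these paralogs, with any CASP reads counted in Cux1, thus overlapped between genotypes.

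Rorb, a nuclear receptor of layer 4 neurons, was at 11.8, 13.1, 11.7 and 13.6 FPKM in KO 0 to KO 3 and at 17.4, 13.6 and 13.5 FPKM in WT 1 to WT 3. WT 1 stood apart from the other 6 animals, and KO 3 lay just above WT 2 and WT 3. The means were 12.6 ± 0.940 FPKM (SD, n = 4) and 14.8 ± 2.23 FPKM (SD, n = 3). The log2 fold change of -0.23 (standard error 0.101, 95% interval -0.45 to -0.00073) had a limma p of 0.0494, an adjusted p of 0.199 and an exact permutation p of 0.114. Without WT 1 it was -0.11 (limma adjusted p = 0.507).

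None of the deep-layer factors was called, and their differences had both signs. Fezf2, the factor that specifies subcerebral projection neurons, was at 13.5, 15.9, 17.1 and 15.1 FPKM in KO 0 to KO 3 and at 15.8, 17.1 and 17.7 FPKM in WT 1 to WT 3. KO 0 was the lowest animal and WT 3 the highest, with KO 2 and WT 2 nearly level. The means were 15.4 ± 1.50 FPKM (SD, n = 4) and 16.9 ± 0.936 FPKM (SD, n = 3), with a log2 fold change of -0.13 (standard error 0.084, limma adjusted p = 0.350, exact permutation p = 0.200).

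Bcl11b (CTIP2), a zinc finger factor that acts downstream of Fezf2 in layer 5, was at 23.6, 25.2, 20.7 and 18.9 FPKM in KO 0 to KO 3 and at 15.4, 26.7 and 16.9 FPKM in WT 1 to WT 3. The CrT+/y animals spanned the whole range, with WT 2 above every CrT-/y animal and WT 1 and WT 3 below every one. The CrT-/y mean was 22.1 ± 2.82 FPKM (SD, n = 4), beside 19.7 ± 6.13 FPKM (SD, n = 3) in the CrT+/y group. The log2 fold change was 0.20 (standard error 0.177, limma adjusted p = 0.505, exact permutation p = 0.429). Without WT 2, the library with the choroid plexus genes and the second highest striatal sum, it was 0.44 (standard error 0.115, limma adjusted p = 0.0930), the single call of any of the 9 genes in the 21 alternatives, in a fit that called 5.81% of its tested genes.

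Tbr1, a T-box factor of layer 6 and the early-born cortical neurons, was at 58.1, 59.1, 53.9 and 65.7 FPKM in KO 0 to KO 3 and at 80.8, 62.3 and 63.6 FPKM in WT 1 to WT 3. WT 1 was again far above the others, and KO 3 lay above WT 2 and WT 3. The means were 59.2 ± 4.88 FPKM (SD, n = 4) and 68.9 ± 10.3 FPKM (SD, n = 3). The log2 fold change of -0.21 (standard error 0.0999, limma adjusted p = 0.222, exact permutation p = 0.114) was -0.09 without WT 1 (limma adjusted p = 0.561).

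Foxp2, a forkhead factor of layer 6 neurons, was at 4.57, 5.23, 4.28 and 4.23 FPKM in KO 0 to KO 3 and at 3.96, 6.15 and 3.82 FPKM in WT 1 to WT 3. As with Bcl11b, WT 2 lay above every CrT-/y animal and the other CrT+/y animals below. The means were 4.58 ± 0.457 FPKM (SD, n = 4) and 4.64 ± 1.31 FPKM (SD, n = 3), and the log2 fold change was 0.01 (standard error 0.161, limma adjusted p = 0.980, exact permutation p = 0.943).

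**Figure D2:**
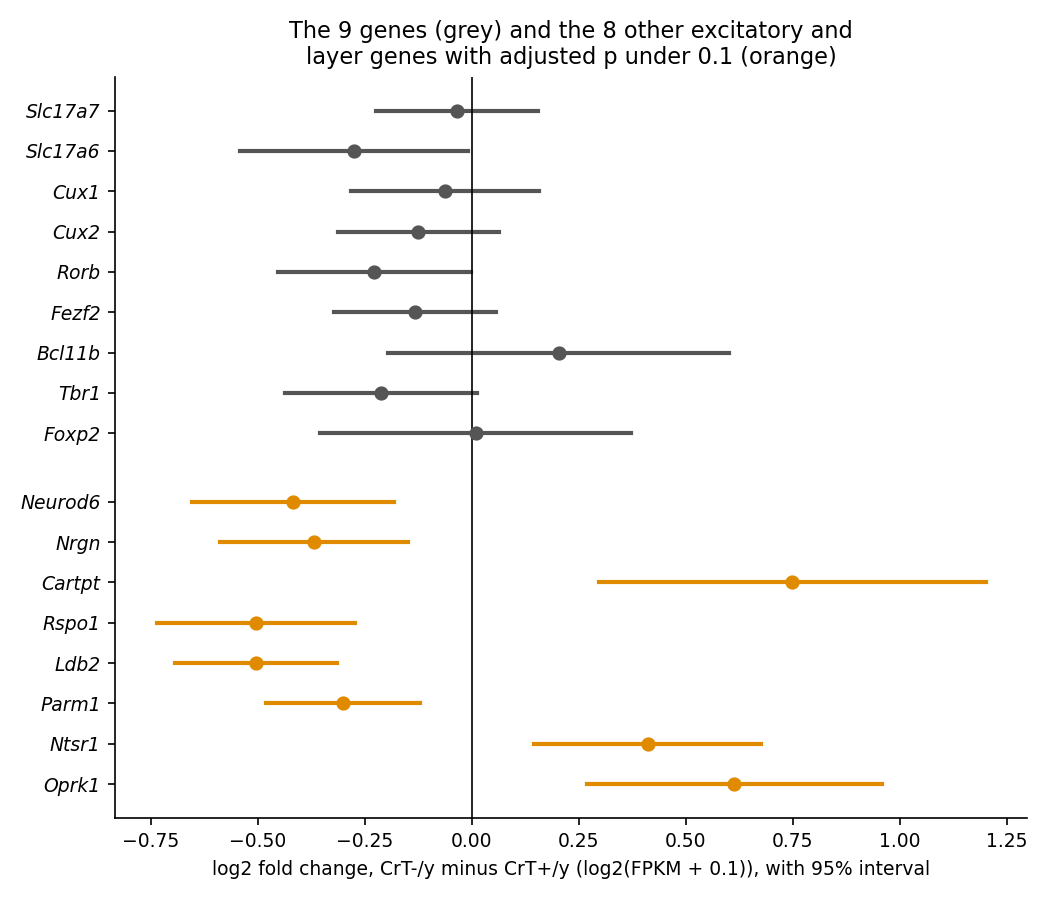
log2 fold change (CrT-/y minus CrT+/y, on log2(FPKM + 0.1)) with its 95% interval from limma for the 9 genes (grey) and for the 8 other excitatory and layer genes with an adjusted p under 0.1 (orange). The grey intervals of Slc17a6 and Rorb end just below 0 and the other 7 cross it.

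Bcl11b and Foxp2 ran over the animals in nearly the order of the striatal genes. The summed striatal level was 296 to 639 FPKM in CrT-/y and 172 to 592 FPKM in CrT+/y animals. From high to low, the striatal sum ran KO 1, WT 2, KO 0, KO 2, KO 3, WT 3 and WT 1, and Bcl11b ran WT 2, KO 1, KO 0, KO 2, KO 3, WT 3 and WT 1. Foxp2 had the order of Bcl11b except that WT 1 and WT 3 changed places. With the striatal level of each animal as a covariate, an alternative chosen after these values had been seen, the log2 difference of Bcl11b between genotypes was -0.04 (standard error 0.079, limma adjusted p = 0.798), where it was 0.20 without the covariate. That of Foxp2 was -0.18 (standard error 0.120, limma adjusted p = 0.418), where it was 0.01. Rorb and Tbr1 were highest in WT 1, the animal with the lowest striatal sum, and their log2 differences with the covariate were -0.14 and -0.11 (limma adjusted p = 0.425 and 0.483). That of Slc17a6 was -0.40 (limma adjusted p = 0.105).

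**Figure D3:**
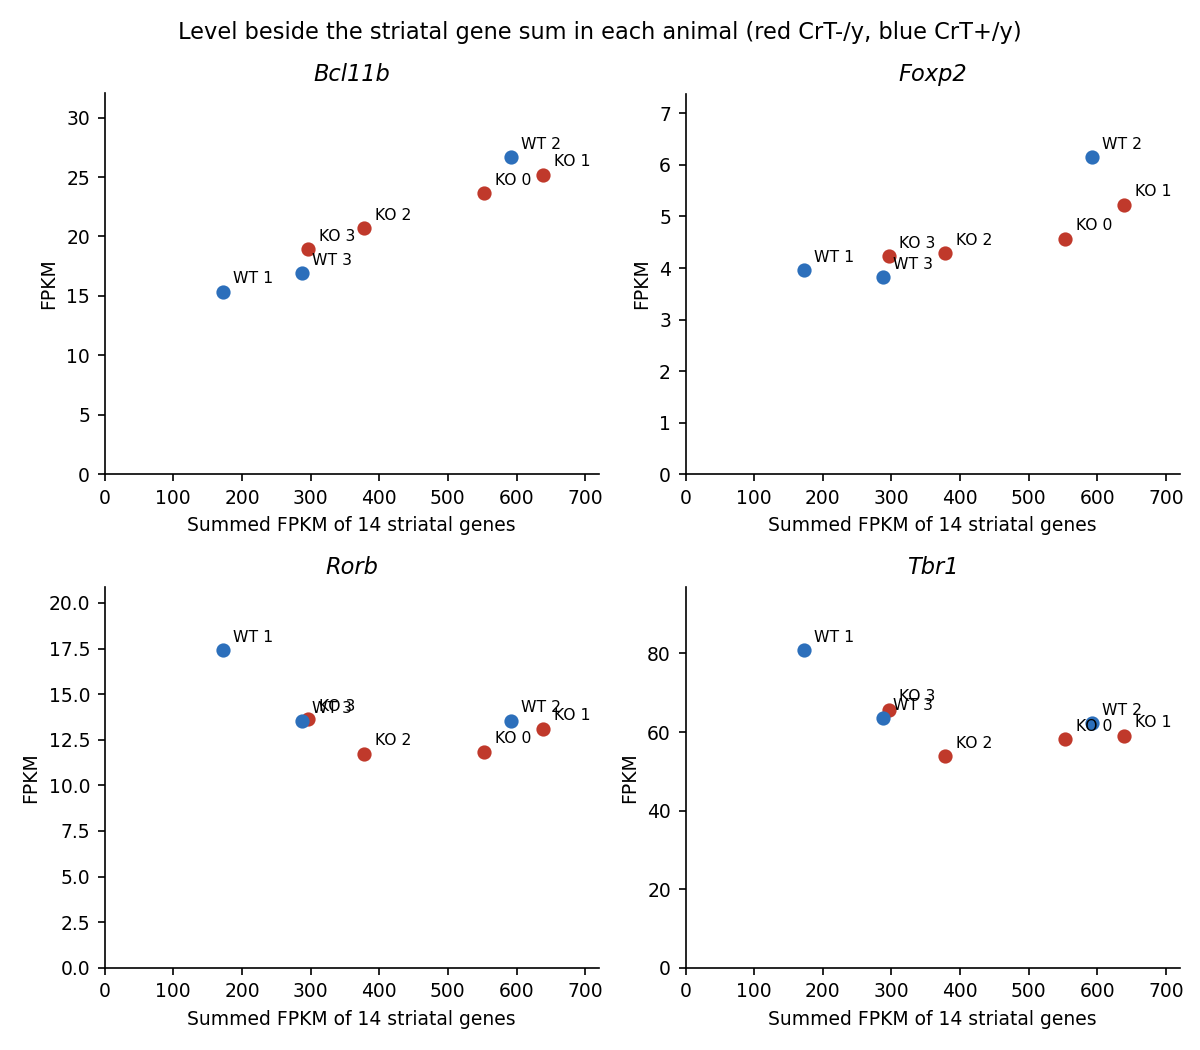
FPKM of Bcl11b, Foxp2, Rorb and Tbr1 (y axes from 0) against the summed FPKM of 14 striatal genes (x axis) in each animal, CrT-/y in red and CrT+/y in blue. Bcl11b goes up from WT 1 at 15.4 FPKM to WT 2 at 26.7 FPKM along the striatal sum in both genotypes, while Tbr1 and Rorb are highest in WT 1 at the left end.

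The 9 genes fell into unlike profiles over the animals. To compare them, each log2 profile was centred on its mean over the 7 animals, and the root mean square of the differences between profiles was taken. Rorb and Tbr1 were 0.039 log2 units apart, and among all tested genes no other was nearer to Rorb than Tbr1, while 1 (Bend6) was nearer to Tbr1 than Rorb. Both stood 0.37 and 0.36 log2 units above their means in WT 1 and 0.19 and 0.22 below in KO 2. These 2 genes mark different layers. Slc17a7 and Cux2 were 0.074 apart, with 335 tested genes nearer to Slc17a7 and 193 nearer to Cux2.

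Bcl11b was the farthest of the 9 genes from Slc17a7, Slc17a6, Cux1, Cux2, Rorb, Fezf2 and Tbr1, with its greatest distance of 0.410 to Tbr1. Its nearest was Foxp2 (0.124 log2 units, with 21 tested genes nearer). The ratio of Tbr1 to Bcl11b accordingly varied from 2.33 in WT 2 and 2.35 in KO 1 to 5.25 in WT 1, and it overlapped between genotypes (2.35 to 3.47 in CrT-/y, 2.33 to 5.25 in CrT+/y). Fezf2 and Bcl11b, which act in 1 pathway of layer 5, were not close either, and their ratio was 0.573 to 0.825 in CrT-/y and 0.641 to 1.04 in CrT+/y. All distances carry the scaling of the libraries, which the genes share.

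The tested genes of most similar profile outside the 9 were Plekho1 and Zfp128 for Slc17a7, Prkcq and Caap1 for Slc17a6, Ppip5k2 and Cstf3 for Cux1, and Lmo4 and Rassf5 for Cux2. Lmo4, at 186 FPKM on average, is itself a cortical transcription cofactor, and its distance from Cux2 was 0.028. They were Rtn4r and St3gal6 for Rorb, Cdk12 and Nop9 for Fezf2, Ankrd63 and Tgfa for Bcl11b, Bend6 and Pak7 for Tbr1, and Zswim6 and Ric8b for Foxp2. Their distances lay between 0.027 for Plekho1 and 0.070 for Tgfa, over 7 animals.

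**Figure D4:**
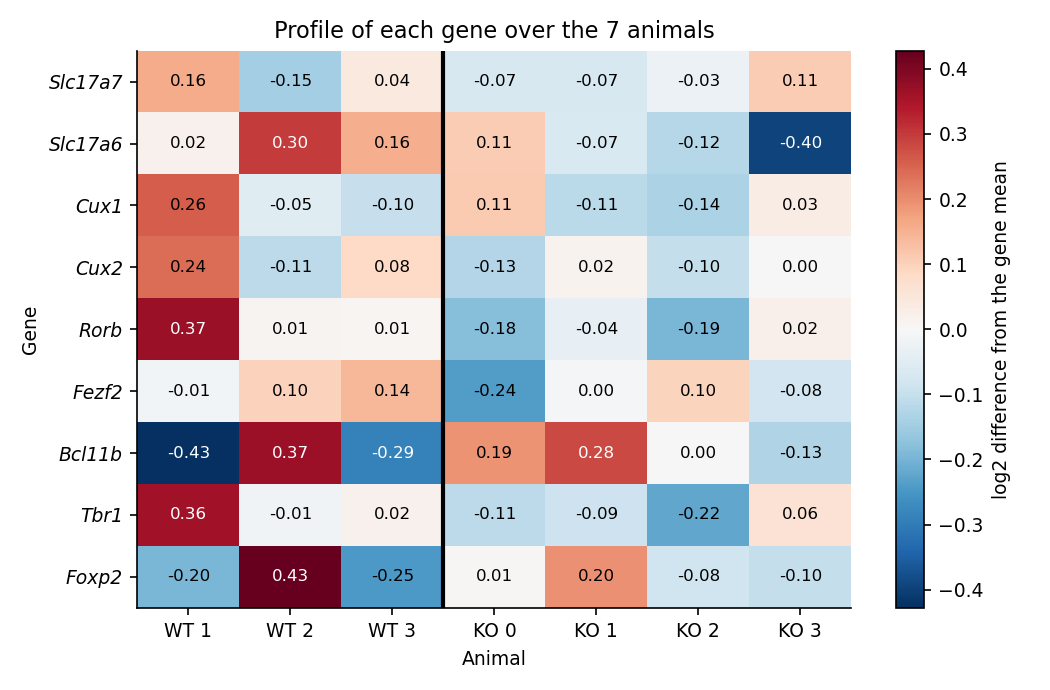
log2(FPKM + 0.1) of each gene in each animal minus the mean of that gene over the 7 animals (colour and printed value), CrT+/y animals left and CrT-/y animals right of the line. Rorb and Tbr1 share their highest value in WT 1 (0.37 and 0.36), where Bcl11b has its lowest (-0.43), and Bcl11b and Foxp2 are highest in WT 2 (0.37 and 0.43).

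Wider lists of the same cells did hold called genes. Of 61 other genes of excitatory identity, of layers 2 to 6b or known as partners and targets of the 9 factors, 59 were tested and 8 were called, which is 13.6% against 10.1% of all tested genes. Of the 8, 5 were lower and 3 higher in CrT-/y animals, while of all 1318 called genes 941 were lower and 377 higher. The split of 5 and 3 became 3 and 4 after quantile normalization, 4 and 5 after upper quartile scaling and 3 and 3 after median centring. The median log2 fold change of the 59 genes was -0.07, and -0.04, -0.01 and -0.03 after these scalings in the same order. For all tested genes it was -0.03, and -0.0023, 0.028 and 0.0036 after them. The striatal, choroid plexus and other libraries that stood apart were part of these fits. With the striatal covariate, 1 of the 59 genes, Ldb2, was called (2.94% of all tested genes). Without KO 0, KO 1 and WT 2, 0 were called. That fit, on KO 2, KO 3, WT 1 and WT 3 alone, called 2 of 12944 tested genes. With so few calls over all genes, its count says nothing about this list.

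Among 9 genes of excitatory neuron identity, the log2 difference was negative in 6 and positive in 3, and 2 were called, both lower in CrT-/y animals and without overlap of the groups. Neurod6, a proneural factor kept in adult pyramidal cells, was at 35.8, 34.7, 45.3 and 32.4 FPKM in KO 0 to KO 3 and at 48.3, 51.8 and 47.3 FPKM in WT 1 to WT 3 (log2 fold change -0.42, standard error 0.104, limma adjusted p = 0.0609). Nrgn, the postsynaptic calmodulin-binding protein neurogranin, was at 1077 to 1191 FPKM in CrT-/y and 1271 to 1667 FPKM in CrT+/y animals (log2 fold change -0.37, standard error 0.097, limma adjusted p = 0.0682). Each of them lost the call in 5 of 7 fits that left out 1 animal, among them those without WT 1, KO 0, KO 1 or KO 3. Over the whole table, where the main fit called 1318 genes, 614, 64, 223 and 342 were called without KO 0 to KO 3. Without WT 1, WT 2 and WT 3 they were 247, 753 and 3736. The lost calls of other genes given below stand beside the same counts. The other 7, with Neurod1, Neurod2, Bhlhe22, Emx1, Slc30a3, Camk2a and Arpp21, were not called.

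By layer, 1 of 13 tested genes of layer 2/3 was called, 1 of 4 of layer 4, 2 of 12 of layer 5 and 2 of 14 of layers 6 and 6b. In layer 4, Rspo1, a secreted enhancer of Wnt signaling, was at 2.92 to 3.40 FPKM in CrT-/y and 4.13 to 5.15 FPKM in CrT+/y animals (log2 fold change -0.50, standard error 0.103, limma adjusted p = 0.0408). Its call was lost without KO 1, KO 2 or WT 1 and with the striatal covariate (limma adjusted p = 0.104). Rorb, the layer 4 factor of the 9, had a log2 fold change of -0.23 without a call. All 4 layer 4 genes had a negative log2 difference, with a median of -0.22, as did 7554 of the 12988 tested genes. Their sum did not overlap between CrT-/y (24.1 to 26.8 FPKM) and CrT+/y animals (29.1 to 30.3 FPKM). The sum of the excitatory identity genes did not overlap either (2212 to 2406 and 2458 to 3069 FPKM). Most of that sum came from the called gene Nrgn and from Camk2a, with means of 1279 and 872 FPKM. With each gene weighted equally, the groups overlapped. The mean log2 deviation of the identity genes was -0.082 in WT 2, below the -0.080 to 0.013 of CrT-/y animals. That of layer 4 still did not overlap. Of single tested genes, 21.6% had groups that did not overlap, and no such share was computed for sums of lists.

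In layer 5, Ldb2, a LIM domain binding protein of subcerebral neurons, was at 22.6, 22.2, 24.9 and 21.0 FPKM in KO 0 to KO 3 and at 33.1, 28.5 and 35.1 FPKM in WT 1 to WT 3. Every CrT-/y animal lay below every CrT+/y animal (log2 fold change -0.50, standard error 0.084, limma adjusted p = 0.0280), and the call held in 19 of 21 alternatives, the exceptions being the fits without KO 1 and without KO 0, KO 1 and WT 2. Parm1 was also lower, at 20.1 to 24.7 FPKM against 25.3 to 29.2 FPKM (log2 fold change -0.30, standard error 0.080, limma adjusted p = 0.0693), but its call held in only 8 of 21 alternatives and in 2 of 7 fits without 1 animal, those without KO 2 or WT 3. Fezf2 and Bcl11b, the layer 5 factors of the 9, were not called and had log2 fold changes of opposite sign.

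Higher in CrT-/y animals were Cartpt in layer 2/3 and Ntsr1 and Oprk1 in layer 6. Cartpt, the precursor of the CART neuropeptides, was at 7.84, 6.79, 7.70 and 10.7 FPKM in KO 0 to KO 3 and at 3.55, 4.85 and 6.42 FPKM in WT 1 to WT 3 (log2 fold change 0.75, standard error 0.201, limma adjusted p = 0.0699), and it kept its call in 1 of 7 fits without 1 animal, the fit without WT 3. Ntsr1, the neurotensin receptor of corticothalamic neurons, was at 3.25 to 4.15 FPKM against 2.56 to 3.18 FPKM (log2 fold change 0.41, standard error 0.118, limma adjusted p = 0.0828). Oprk1, the kappa opioid receptor, was at 2.85 to 3.97 FPKM against 1.77 to 2.46 FPKM (log2 fold change 0.61, standard error 0.153, limma adjusted p = 0.0609). Ntsr1 and Oprk1 kept their calls in 3 of 7 such fits, those without KO 0, WT 2 or WT 3. Tbr1 and Foxp2, the layer 6 factors of the 9, had log2 fold changes of -0.21 and 0.01 without a call.

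Of the 8 tested partners and targets of the layer factors, none was called, and the lowest p was that of Sox5, a factor of corticofugal neurons (log2 fold change -0.18, standard error 0.091, limma adjusted p = 0.257). Of 9 relatives of the 9 genes, 4 passed the filter and none was called, the lowest p being that of Bcl11a, the paralog of Bcl11b, at 52.4 ± 2.11 FPKM (SD, n = 4) against 58.1 ± 4.40 FPKM (SD, n = 3) with a log2 fold change of -0.15 (standard error 0.064, limma adjusted p = 0.192). Bcl11b, for comparison, was at 22.1 and 19.7 FPKM in the same groups. The forkhead relatives Foxp1 and Foxp4 and the nuclear receptor Rora had log2 fold changes of -0.13, 0.12 and -0.02.

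**Figure D5:**
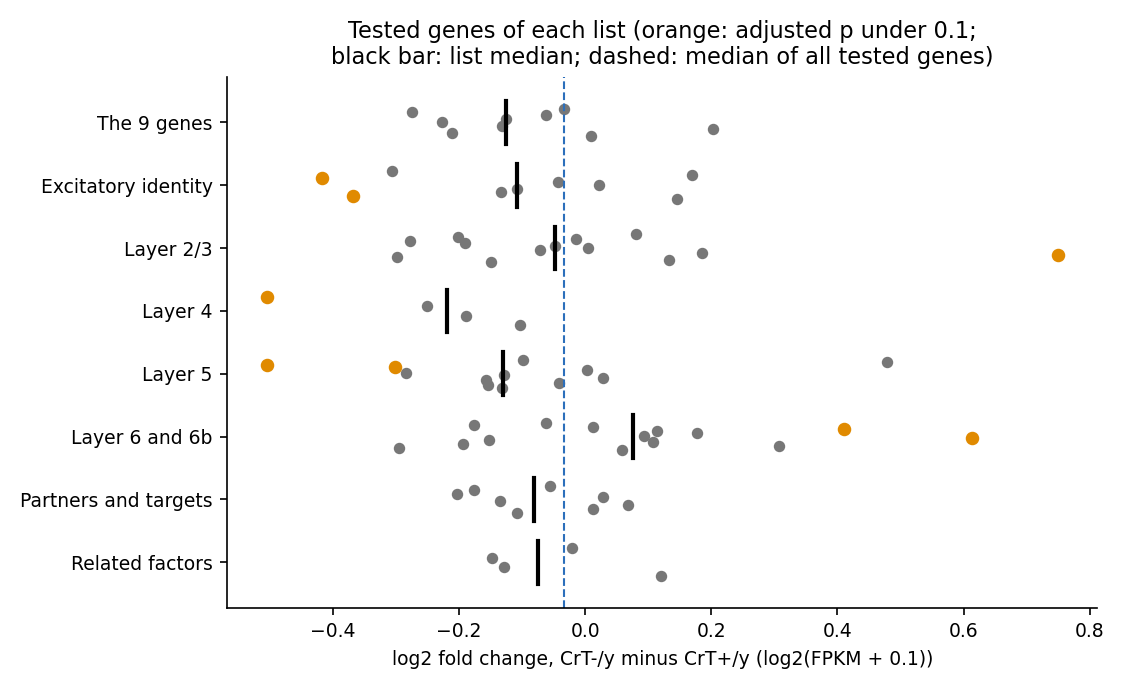
log2 fold change (CrT-/y minus CrT+/y) of the tested genes of the 9 and of 7 lists, with genes of adjusted p under 0.1 in orange, the list median as a black bar and the median of all tested genes (-0.03) as a dashed line. The 9 genes have no orange point and a median of -0.13, layer 4 has the lowest median (-0.22) and layers 6 and 6b the only positive one (0.08).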

How the data were processed

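The authors mapped the reads on mm10 with the Tuxedo tools (Bowtie and Cuffnorm in the submitters' processing notes), used reads of unique position and deposited FPKM per gene and animal, without counts. Since FPKM are not counts, a log-scale test was used. Depth was estimated only in relative terms (0.868 to 1.24 of the mean, from the value of 1 fragment in weakly expressed genes). The study lists the number of reads of each replicate in its supplement, and those numbers were not used here. From these values, 0.1 was added and log2 was taken. Genes whose mean over the animals reached 1 FPKM were fitted by limma 3.58.1 in R 4.3.3 on genotype with a variance trend and two-sided Benjamini-Hochberg adjustment over all tested genes. The threshold was an adjusted p under 0.1, as in the methods of the study. The step was run on simulated data in which each gene was drawn independently of the others. Differences that an animal shows over many genes at once, like those in striatal genes, were not part of that simulation. Because of the added value, fold changes of low genes are understated. Exact permutation tests (two-sided, 35 splits) used the difference of mean log2 values for each of the 9 genes. The limma p sets the difference between genotypes against the spread of animals within a genotype, with the variance moderated over all tested genes. The exact p is the share of the 35 splits whose difference is at least as large as the one observed.

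The 9 genes and all gene lists were chosen with earlier results of these data known. All 9 are given in full. From the other lists, called genes are named or, where none passed, the gene of lowest p, from marker lists the gene of highest mean level and called genes, and for likeness the 2 nearest genes. Neurod1 and other uncalled list genes, and Lmo4 among the nearest, were singled out after their values were seen. The inhibitory neuron, astrocyte, oligodendrocyte precursor, microglial and endothelial lists were led by Sst, Slc1a3, Pdgfra, Csf1r and Cldn5, and a pair of list genes is not reported here. Positions come from GENCODE (GRCm38) and promoter windows from RefSeq (GRCm38.p6), matched by symbol. Lists were described by counts and medians without a set test. Tables were handled with Python 3.11.15, pandas 2.3.3, numpy 2.4.6 and scipy 1.17.1.

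The 21 alternatives changed the pseudocount (1 or 0.01), the filter (none, or a mean of 5 FPKM), the scaling (median centring, upper quartile, quantile normalization), the length trend of each animal, the variance model (without trend, or array weights) and the block on replicate number (alone or with the length trend), or dropped 1 animal at a time. Added after the values were seen were the striatal level as a covariate and a fit without KO 0, KO 1 and WT 2.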

Additional observations from a re-analysis of the deposited data

Results flagged for a closer look

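In CrT-/y animals, groups of 4, a value was looked for whose gap to the nearest other animal took more of the whole range than Dixon's critical value for 4 samples, which chance gives in about 1 in 20 groups. Of the 25 genes examined, none of the 9 excitatory and layer genes showed such a gap, and 2 other named genes did, both in KO 1. Cdhr1 was at 9.14 FPKM there (gap 0.903 of the range) and Dlx1 at 5.59 FPKM, at the margin of that value. CrT+/y animals, a group of 3, were not examined in this way.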

How the results depend on the processing

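Slc17a6, Cux2, Rorb, Fezf2 and Tbr1 had a negative log2 difference and no call in each of the 21 alternatives, with log2 fold changes of -0.40 to -0.18, -0.22 to -0.04, -0.29 to -0.11, -0.18 to -0.06 and -0.28 to -0.09 and lowest limma adjusted p of 0.105, 0.143, 0.103, 0.276 and 0.132. The log2 fold change of Slc17a7 turned to 0.039 with quantile normalization, 0.029 with upper quartile scaling, 0.0034 with median centring and 0.062 with the striatal covariate, and was -0.12 (without WT 2) to 0.037 (without WT 1) with 1 animal left out. That of Cux1 turned to 0.00046 with upper quartile scaling, 0.025 with the length correction and 0.010 with the covariate, and was -0.13 (without WT 3) to 0.049 (without WT 1) with 1 animal left out. That of Bcl11b turned to -0.041 with the covariate, and that of Foxp2 to -0.055 with array weights and -0.18 with the covariate, and was -0.11 (without WT 3, negative also without KO 1 or WT 1) to 0.23 (without WT 2) with 1 animal left out. The cause of these changes was not tested. Leaving out 1 animal gave 0 to 1 called of the 9 genes, 1 (Bcl11b) without WT 2. Foxp2 was not tested at a mean of at least 5 FPKM.

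The number of called genes over the whole table, 1318, was 730 without a filter, 382 with the covariate, 2 without KO 0, KO 1 and WT 2, and 64 (without KO 1) to 3736 (without WT 3) with 1 animal left out. The 8 called of the other excitatory and layer genes became 2 without a filter, 1 with the covariate, 0 without those 3 animals, and 0 (without KO 1) to 15 (without WT 3) with 1 animal left out. The exact test gave 0 of the 9 genes under 0.05 in 6 alternatives, and was not run without 1 animal, since it could not then reach 0.05.

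The labels do not say whether equal replicate numbers mean paired animals, and the main fit did not treat them as pairs. The correlations that follow cannot exclude a shared litter or batch. The correlations across genes of same-numbered deviations from the group means were -0.078, 0.046 and -0.051, and not every animal correlated best with its own number. With the replicate block, in which KO 0 has no partner and does not enter the difference, 576 genes of the table were called (532 with the length correction), 0 of the 9 genes and 6 of the other excitatory and layer genes. The median log2 fold change of the 9 genes was then -0.10 (-0.04 with the length correction). Without counts per gene, the precision that depth gives each value was not estimated.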
